A study of Mus musculus with 6 samples.

Results

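The genes described here make cholesterol and fatty acids or govern their making. They are 30 named genes: 18 enzymes of the mevalonate and sterol route (the sterol arm), 6 regulators and carriers of the SREBP system, and 6 enzymes of fatty acid synthesis (the fatty acid arm). The members were chosen by their known roles, by gene symbol, with earlier results of these data known. Of the 30, 27 lay on a probe set that carries their symbol alone. Idi1 and Scd2 share their probe sets with other genes and Acat2 was on none with its name, so these 3 have no expression value here. All 27 lay above the brightness floor used below on every array. They are 27 of 22180 genes with such a probe set, and 16797 of these genes were bright enough to be tested.

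Cholesterol is built from acetyl-CoA through mevalonate, farnesyl pyrophosphate and squalene, which is closed to lanosterol and trimmed to cholesterol. The transcription factors SREBP-2 (gene Srebf2) and SREBP-1 (Srebf1) switch on most of these enzymes and those of fatty acid synthesis. Scap carries SREBP to the Golgi when sterols are low, and the Insig proteins hold it in the endoplasmic reticulum when sterols are high. Growing tumour cells need both lipids for membranes and can also take cholesterol from serum.

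RNA came from 3 cultured mouse cancer lines grown in medium with fetal bovine serum: LLC, from Lewis lung carcinoma, AE17, from malignant mesothelioma, and MC38, from colon adenocarcinoma. For every line there was 1 sh Ctrl array, with the genotype wild type, and 1 sh Spp1 array, with the genotype Spp1 depletion, a short hairpin RNA against the gene of osteopontin. Whether the sh Ctrl cells carried a control hairpin, and whether each culture was a pool or a clone, is not given in the sources used here. No probe set used here names Spp1, so the knockdown was not checked and each direction rests on the labels. Values are log2 intensities after quantile normalisation, a ratio is the sh Spp1 array minus the sh Ctrl array of a line, and a ratio within a line has no replicate, since it sets a single array against another.

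The AE17 arrays stood apart from each other. They correlated over all probe sets at r = 0.939, and so below 0.979 for the LLC pair and 0.982 for the MC38 pair. Every pair of arrays from different lines also correlated higher than the AE17 pair. Those pairs ran from 0.9425, for AE17 sh Spp1 with MC38 sh Ctrl, to 0.9647, for LLC sh Ctrl with MC38 sh Ctrl. Whether both AE17 arrays hold the same cells was not tested. The ratios of all genes had an SD of 0.94 in AE17, 0.46 in LLC and 0.43 in MC38. Deposited median intensities differed between arrays, from 26.6 to 64.2. The labelled tissues were not set apart by their markers. The 7 mesothelium markers had a median of 5.77 and 5.59 on the AE17 arrays and 7.83 and 7.69 on those of MC38, the 8 of colon epithelium 5.09 and 4.88 in MC38, and the 7 of lung epithelium 4.60 and 4.79 in LLC. Msln, a defining marker of mesothelium, was at 5.13 and 5.34 on the AE17 arrays and at 9.87 and 9.96 on the MC38 arrays, Cdx2, of colon epithelium, was at 5.18 and 5.03 in MC38, and Epcam was under the floor of 4.49 on all 6 arrays. Pdpn, of the same mesothelium list as Msln, was at 6.99 and 9.75 in AE17 and at 9.70 and 9.63 in MC38. The 7 mesothelium markers did not differ 1 way between the AE17 arrays. Gata6, Pdpn and Lrrn4 had ratios of 2.76, 2.76 and 1.14, Msln 0.21, Upk3b -0.19, Wt1 -0.19 and Bnc1 -1.21. Of 7 fibroblast markers, 7 were above the floor on every array. They did not differ 1 way between the AE17 arrays: Col1a1, Pdgfrb and Col3a1 had ratios of 5.09, 3.22 and 2.29, Col1a2 and Dcn 0.13 and 0.11, Thy1 -0.49 and Pdgfra -1.14. The median of the 7 ratios was 0.13 in AE17, -0.55 in LLC and -0.65 in MC38.

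In AE17 the genes of cholesterol synthesis were higher together on the sh Spp1 array. Of 27 members, 13 were at least 2-fold higher and 0 at least 2-fold lower, where 9.9% of 17678 genes were 2-fold higher and 8.71% 2-fold lower. In the sterol arm 10 of 16 enzymes were 2-fold higher and 15 of 16 had a ratio above 0, against 47.4% of all genes. The arm's median log2 ratio was 1.02, or 2.03-fold, and that of all genes was -0.04. The fatty acid arm had a median of 0.73, with 1 of 5 enzymes at 2-fold, and the regulators 0.36, with 2 of 6. In bulk RNA, fewer cells with a transcript and less of it per cell cannot be told apart. The AE17 arrays with this difference also had the lowest correlation of all array pairs, those of different lines included. Between them 3 of 7 fibroblast markers were 2-fold higher and 1 2-fold lower, and so were 3 and 1 of 7 mesothelium markers. The part of any of these in the difference was not tested.

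**Figure D1:**
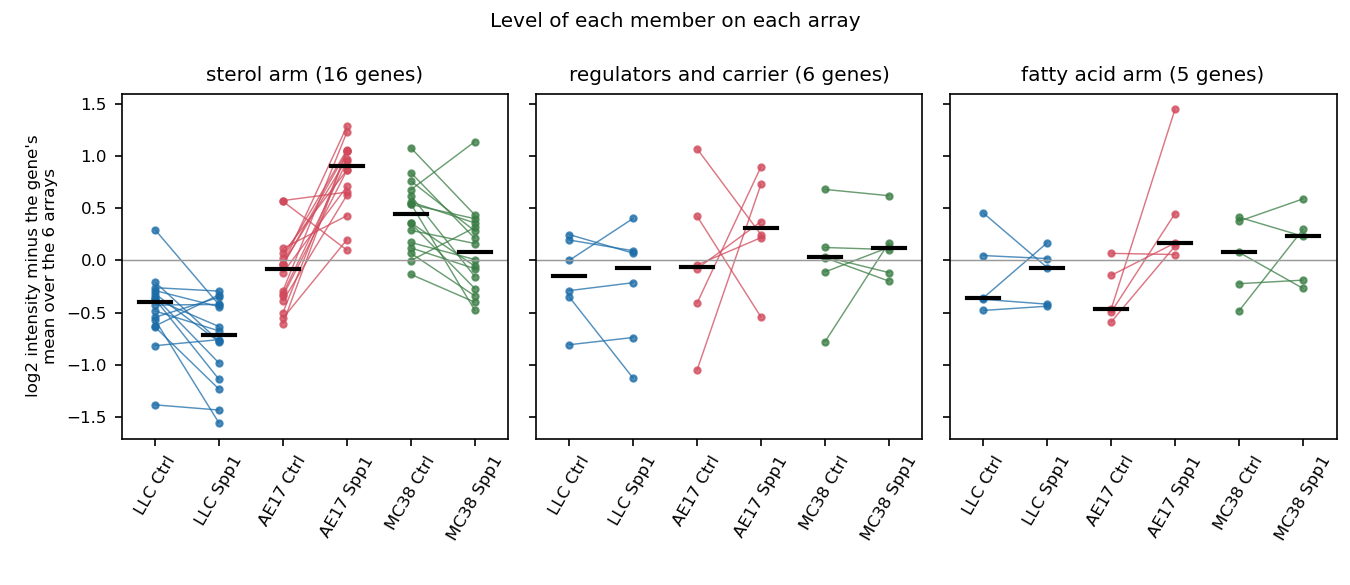
Level of each measured member on each of the 6 arrays, as log2 intensity minus the gene's mean over the arrays, for the sterol arm (16 genes), the regulators and carrier (6) and the fatty acid arm (5). Lines join the sh Ctrl and sh Spp1 arrays of a cell line and black bars are medians: the sterol arm's median is -0.08 on the AE17 sh Ctrl array and 0.91 on the AE17 sh Spp1 array, while the LLC pair has -0.40 and -0.72 and the MC38 pair 0.45 and 0.09.

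The mevalonate part of the route was higher in AE17 from its first measured step. Each gene's sh Ctrl value is given before its sh Spp1 value. Hmgcs1 (Entrez gene 208715), the synthase that makes HMG-CoA, was at 9.41 and 10.42 in AE17, at 9.08 and 8.81 in LLC and at 9.99 and 8.97 in MC38. It was therefore 2.02-fold higher in AE17 and 2.03-fold lower in MC38, where its log2 ratio was -1.02 after quantile normalisation but short of 2-fold as deposited, at -0.61, and when centred, at -0.44. Mvk (Entrez gene 17855), mevalonate kinase, was at 7.06 and 8.58 in AE17, 7.15 and 6.58 in LLC and 7.47 and 7.27 in MC38. Both genes had their highest value of the 6 on the AE17 sh Spp1 array, and Mvk differed in that line by 2.87-fold. Mvd (Entrez gene 192156), the decarboxylase that makes isopentenyl pyrophosphate, was at 7.13 and 8.68 in AE17, 7.34 and 7.18 in LLC and 7.80 and 7.64 in MC38. Fdps (Entrez gene 110196), the synthase of farnesyl pyrophosphate, was at 10.20 and 11.24 in AE17, 9.61 and 8.62 in LLC and 10.94 and 10.46 in MC38. Fdps thus had ratios of 1.04, -0.99 and -0.48, and the LLC difference, 1.98-fold lower, lay just short of 2-fold. Pmvk, phosphomevalonate kinase, had the smallest AE17 ratio of the 5 measured mevalonate enzymes, 0.31.

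The enzymes from squalene to lanosterol were higher in AE17 but for Sqle. Fdft1 (Entrez gene 14137), squalene synthase, was at 10.17 and 11.44 in AE17, 10.17 and 9.70 in LLC and 11.11 and 10.33 in MC38. Lss (Entrez gene 16987), the cyclase that makes lanosterol, was at 7.66 and 9.32 in AE17, 7.72 and 7.92 in LLC and 8.56 and 8.43 in MC38. Lss had the largest AE17 ratio of the arm, 1.66 or 3.16-fold. Sqle, the squalene epoxidase that acts between them, did not share it: its AE17 arrays were at 10.53 and 10.61, a ratio of 0.08.

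Among the enzymes that turn lanosterol into cholesterol, Cyp51 (Entrez gene 13121), the demethylase, was at 8.07 and 9.27 in AE17, 7.59 and 7.65 in LLC and 9.25 and 8.62 in MC38. Tm7sf2 (Entrez gene 73166), a sterol reductase, was at 6.45 and 7.47 in AE17, 6.58 and 6.55 in LLC and 6.84 and 7.15 in MC38. Nsdhl (Entrez gene 18194), the sterol dehydrogenase, was at 9.22 and 10.54 in AE17, 8.90 and 8.27 in LLC and 9.61 and 8.98 in MC38. These 3 had AE17 ratios of 1.20, 1.01 and 1.32. Ebp (Entrez gene 13595), the sterol isomerase, was at 7.56 and 8.65 in AE17, 6.22 and 6.17 in LLC and 8.28 and 8.74 in MC38. Higher in AE17 but short of 2-fold was Dhcr7, which makes the last reduction of 1 branch, at 0.83 or 1.77-fold. The ketosteroid reductase Hsd17b7 had 0.80 and the methyl oxidase Msmo1 0.75 in that line, or 1.74-fold and 1.68-fold. Sc5d, the sterol desaturase, was the 1 enzyme of the arm with a ratio below 0 in AE17. Its ratios were -0.47 in AE17, -0.72 in LLC and -0.27 in MC38, and 0.13, 0.20 and 0.29 in that order with centred arrays, so its direction rests on the scaling.

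**Figure D2:**
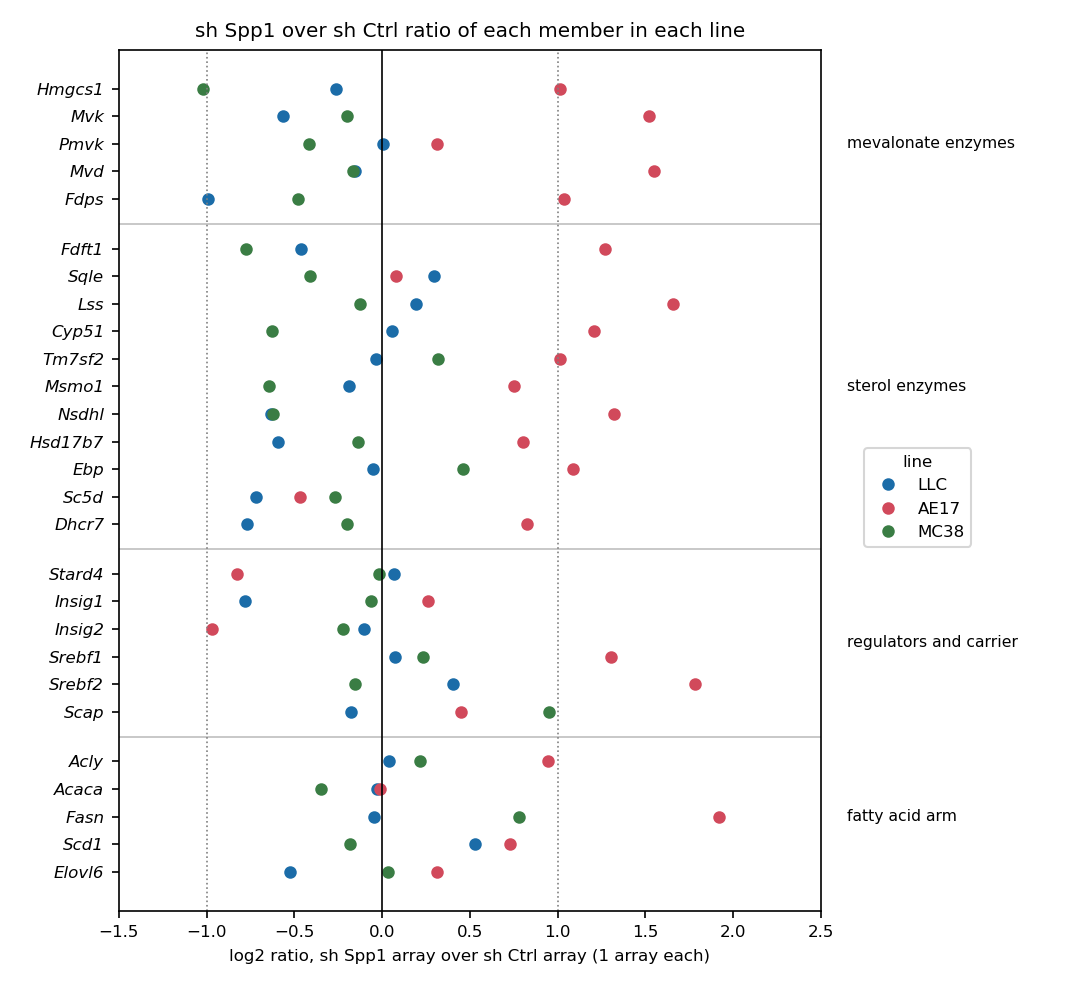
Log2 ratio of the sh Spp1 array over the sh Ctrl array for each measured member (rows, grouped by role) in LLC, AE17 and MC38 (colours), 1 array against 1 array. Dotted lines mark 2-fold: 13 AE17 points lie beyond the right line, 1 MC38 point (Hmgcs1) lies beyond the left, and no LLC point lies beyond either.

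Promoter sequences were read because the sterol arm moved together in AE17. RefSeq windows of GRCm38.p6, from 250 bases before to 50 after a gene's start, matched 24 of the 30 members and 15 of the 18 sterol enzymes. The 15 include Acat2 and Idi1, which have no expression value here, whereas the tested genes set beside them all have one. The box CCAAT, the core of NF-Y sites, was searched on both strands and was in 14 of the 15, or 93.3%, against 41.5% of 13011 tested genes with a window. The 1 sterol enzyme with a window but without this box was Acat2, and Idi1 had the box. CCAAT was in 2 of the 4 fatty acid genes with a window. The box GGGCGG, a core of Sp1 sites, was also in 14 of the 15, against 60.4%. The SREBP-type element TCACNCCAC was in 1 member, Hmgcs1, and in 1.47% of tested genes. A match describes these letters and is not a site; none of the 3 motifs contains another, and variants of the element were not searched. Shown are the 250 bases before the start, 5′ to 3′ on the gene's strand, for Hmgcs1 (chr13:119690101-119690350, plus strand), which has the element, for the sterol arm enzymes with the largest AE17 ratios, Lss (chr10:76531355-76531604, plus strand) and Mvd (chr8:122443423-122443672, minus strand), and for Sc5d (chr9:42264301-42264550, minus strand), the sterol arm enzyme with the lowest AE17 ratio. Capitals mark CCAAT on either strand (ATTGG on the strand shown) and, in Hmgcs1, the element, which begins 137 bases before the start.
Hmgcs1: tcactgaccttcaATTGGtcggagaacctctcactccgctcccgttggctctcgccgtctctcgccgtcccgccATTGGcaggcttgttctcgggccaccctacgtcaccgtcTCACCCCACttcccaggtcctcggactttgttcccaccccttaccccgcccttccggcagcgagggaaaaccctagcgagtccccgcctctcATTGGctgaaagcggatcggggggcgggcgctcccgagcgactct
Lss: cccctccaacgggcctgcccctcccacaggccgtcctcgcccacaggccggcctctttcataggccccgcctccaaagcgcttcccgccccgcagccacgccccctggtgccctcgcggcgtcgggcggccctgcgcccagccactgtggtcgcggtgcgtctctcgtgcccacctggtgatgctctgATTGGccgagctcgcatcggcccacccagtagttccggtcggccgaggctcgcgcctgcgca
Mvd: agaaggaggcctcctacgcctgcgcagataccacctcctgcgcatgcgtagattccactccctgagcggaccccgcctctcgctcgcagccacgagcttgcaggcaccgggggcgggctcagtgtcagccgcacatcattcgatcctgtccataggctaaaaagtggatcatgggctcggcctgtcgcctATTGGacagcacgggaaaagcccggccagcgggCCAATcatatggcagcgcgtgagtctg
Sc5d: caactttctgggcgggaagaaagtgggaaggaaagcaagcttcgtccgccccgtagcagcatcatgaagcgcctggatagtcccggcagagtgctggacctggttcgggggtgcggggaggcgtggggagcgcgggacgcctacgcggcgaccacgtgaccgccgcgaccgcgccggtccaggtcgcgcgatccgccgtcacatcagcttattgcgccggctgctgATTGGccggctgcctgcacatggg
Hmgcs1 held 3 CCAAT boxes in this stretch, Mvd 2, Lss 1 and Sc5d 1. The part of the boxes in the AE17 ratios was not tested.

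The regulators split in AE17. Srebf2 (Entrez gene 20788), whose product drives the sterol enzymes, was at 8.95 and 10.73 in AE17, 10.00 and 10.40 in LLC and 10.03 and 9.88 in MC38. Its AE17 sh Ctrl array was the lowest of the 6 and its AE17 sh Spp1 array the highest, 3.44-fold apart. Srebf1 (Entrez gene 20787), whose product drives fatty acid synthesis more than sterol synthesis, was at 7.41 and 8.72 in AE17, 7.53 and 7.61 in LLC and 7.71 and 7.95 in MC38. Srebf1 was among the members with a ratio above 0 in all 3 lines. Insig2, a retention protein of the SREBP complex, had the opposite sign in AE17, at -0.97, just short of 2-fold, and -0.10 and -0.22 in LLC and MC38. Insig1, its relative and itself a target of SREBP, had 0.26 in AE17 and -0.78 in LLC. Stard4, a carrier of cholesterol between membranes, had -0.82 in AE17, 0.07 in LLC and -0.02 in MC38. Scap, the escort of SREBP, had ratios of 0.45 in AE17, -0.18 in LLC and 0.95 in MC38, and its second, dimmer probe set gave 0.02, 0.10 and 0.20 in that order, with the other sign in LLC.

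Fatty acid synthesis was less uniform. Fasn (Entrez gene 14104), the fatty acid synthase, was at 9.84 and 11.76 in AE17, 9.94 and 9.89 in LLC and 9.83 and 10.61 in MC38. All 3 sh Ctrl arrays lay between 9.83 and 9.94, and the AE17 ratio of 1.92, or 3.78-fold, was the largest of all members in any line. Acly, which makes cytosolic acetyl-CoA from citrate for both arms, had ratios of 0.04, 0.95 and 0.21 in LLC, AE17 and MC38. Scd1, the desaturase that makes oleate, had 0.53, 0.73 and -0.18, and the elongase Elovl6 -0.52, 0.31 and 0.03. Acaca, acetyl-CoA carboxylase, which makes the malonyl-CoA that Fasn uses, had -0.03, -0.01 and -0.35, so the 2 enzymes of successive steps differed in AE17 by 1.92 against -0.01.

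LLC and MC38 showed smaller ratios, mostly on the other side of 0. In LLC 0 of 27 members reached 2-fold in either direction, where 1.75% of 17054 genes were 2-fold higher and 1.81% 2-fold lower. In MC38 0 were 2-fold higher and 1, Hmgcs1, 2-fold lower, where 0.882% and 1.7% of 17014 genes were. The sterol arm had a ratio below 0 for 12 of 16 enzymes in LLC, against 47.2% of all genes, and for 14 of 16 in MC38, against 47.5%. Its median was -0.23 in LLC and -0.34 in MC38. The largest LLC differences were those of Fdps at -0.99, Insig1 at -0.78, Dhcr7 at -0.77 and Sc5d at -0.72, and the largest in MC38 were Hmgcs1 at -1.02, Scap at 0.95, Fasn at 0.78 and Fdft1 at -0.78. The sign of the sterol medians and the split of the calls differed between scalings. In MC38 2 members, Scap and Fasn, were 2-fold higher and 0 lower both as deposited and when centred, where 2.12% and 5.03% of genes were 2-fold higher and 1.7% and 1.21% lower. As deposited, the sterol median was -0.59 in LLC, where all genes had -0.53, and -0.02 in MC38, where they had 0.05. Centring the arrays by their medians gave 0.20 for LLC and 0.16 for MC38, where all genes had 0.33 and 0.26. Relative to all genes the arm lay lower by each scaling, at -0.25, -0.05 and -0.12 in LLC and -0.36, -0.07 and -0.10 in MC38 for quantile, deposited and centred values. The 11 measured proliferation genes likewise had 11 ratios below 0 in LLC after quantile normalisation and 0 when centred, and their part in the LLC result was not tested. In LLC 3 members were 2-fold lower and 0 higher as deposited, where 17.1% and 0.714% of genes were, and 3 were 2-fold higher and 0 lower when centred, where 15.9% and 0.918% were. In AE17 the sterol median was 1.21 as deposited and 1.66 when centred, and 9 and 13 of 16 enzymes were then 2-fold higher, where 10.1% and 19.0% of all genes were. Relative to all genes it was 1.06, 1.45 and 1.46 by quantile, deposited and centred values.

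**Figure D3:**
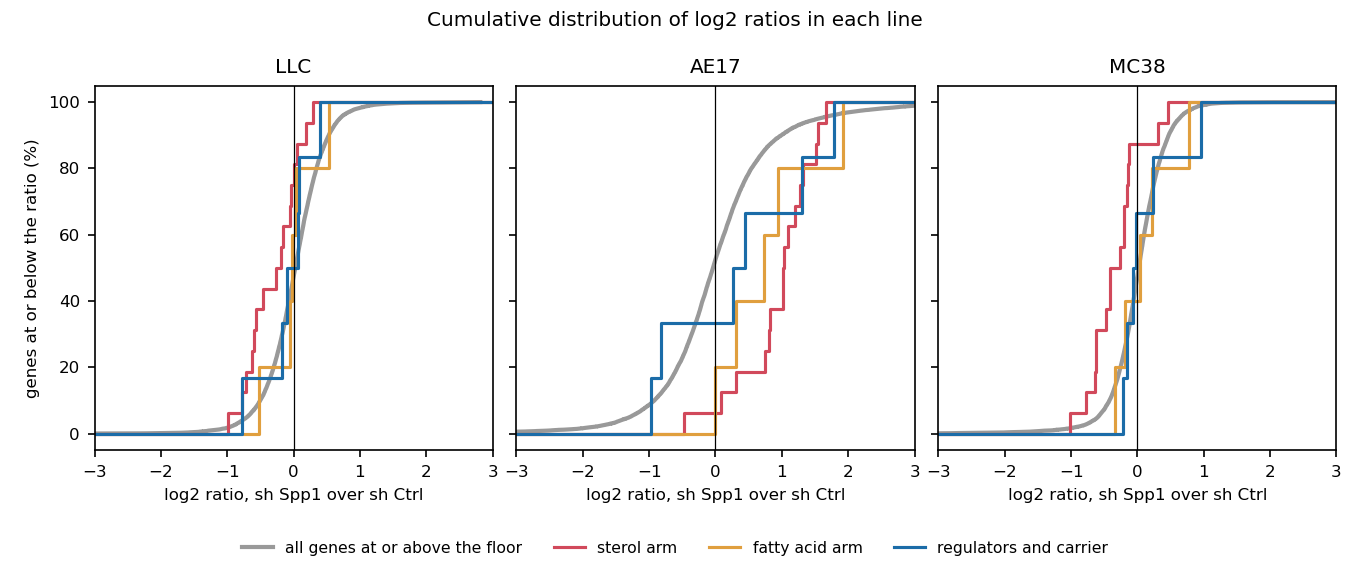
Cumulative distribution of log2 ratios in each line for all genes at or above the brightness floor (grey; 17054 in LLC, 17678 in AE17, 17014 in MC38), the sterol arm, the fatty acid arm and the regulators. The sterol arm's curve lies to the right of all genes in AE17, with a median of 1.02, and to the left in LLC and MC38, where its medians of -0.23 and -0.34 become 0.20 and 0.16 with centred arrays.

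Directions were then set side by side over the lines. Higher in AE17 and lower in both other lines were 10 of 27 members, 9 of them sterol enzymes, against 9.63% of genes. A ratio above 0 in every line was found for 2 members, Srebf1 and Acly, against 16.8% of genes, and below 0 in every line for 3, Sc5d, Insig2 and Acaca, against 15.5%. These counts hold for quantile normalisation alone. As deposited the opposed pattern had 9 members, against 8.59% of genes, and when centred 0, against 5.87%. A ratio above 0 in every line was then found for 4 and 15 members, against 12.3% and 41.5%, and below 0 for 0 and 0, against 30.5% and 8.11%. Of the 5 members just named, Acly alone kept its sign in every line by all 3 scalings. In limma's fit with the cell line as a block, 0 of 27 members and 0% of genes in either direction reached an adjusted p under 0.05. At an unadjusted p under 0.05 there was 1 member, Sc5d, with a mean ratio of -0.48 ± 0.23 (SD, n = 3 lines), and 6.05% of all genes, and limma gave Sc5d an adjusted p of 0.723, a value that other genes shared and none went below. Fasn had a mean ratio of 0.88 ± 0.99 and Lss one of 0.57 ± 0.95 (SD, n = 3 lines), spreads between lines larger than the means. The 3 lines are the replicates of this test, so its p-values measure the spread between lines, and with 3 pairs the smallest p of an exact two-sided sign-flip test is 0.25.

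**Figure D4:**
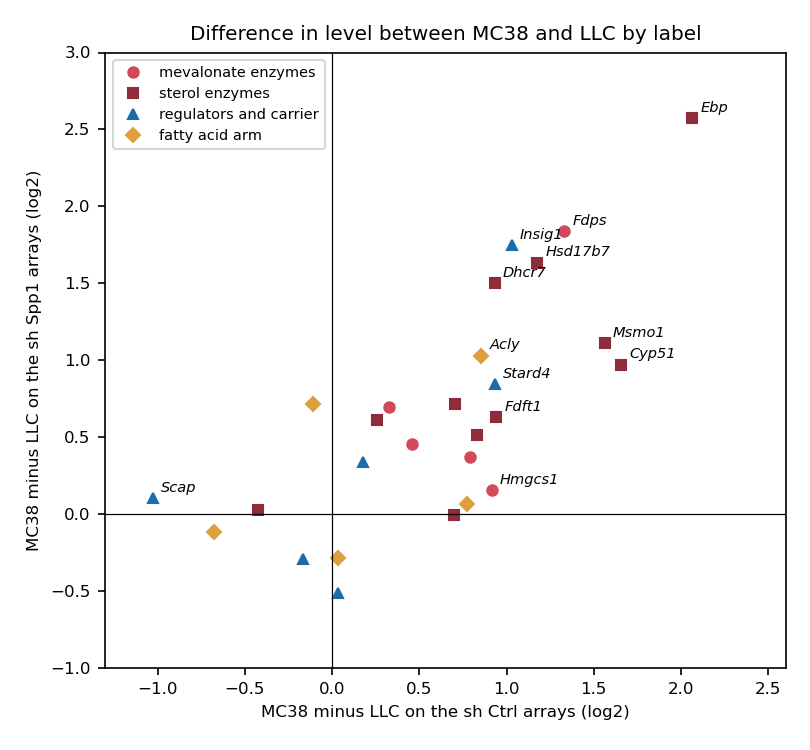
Difference in log2 level between MC38 and LLC for each measured member, on the sh Ctrl arrays (horizontal) and on the sh Spp1 arrays (vertical), 1 array against 1 array. Ebp lies highest at 2.06 and 2.57, and 15 of 16 sterol enzymes lie above 0 on each axis.

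Levels of the sterol arm also differed between lines, most evenly between MC38 and LLC. The median MC38 minus LLC difference of the 16 sterol enzymes was 0.87 on the sh Ctrl arrays and 0.66 on the sh Spp1 arrays, with 15 of 16 above 0 on each, where all tested genes had medians of 0.00 and -0.01. Both MC38 arrays lay above both LLC arrays for 18 of 27 members, 13 of them sterol enzymes, against 24.9% of tested genes. They lay below for 2, Insig2 and Elovl6, against 24.2%. As deposited 16 members lay above and 3 below, where 13.6% and 19.0% of genes did, and when centred 17 and 0, where 20.1% and 13.7% did. Ebp had a mean difference of 2.32, or 4.98-fold, Fdps 1.59, Hsd17b7 1.40, Insig1 1.39, Msmo1 1.34, Cyp51 1.31 and Dhcr7 1.22. In limma's model of line and label, 0 members and 0% of genes passed in either direction, with 9 members and 11.5% of genes at an unadjusted p under 0.05 and a smallest member adjusted p of 0.126, for Ebp. The error of that model holds the AE17 ratios. Without the AE17 arrays limma called 7 members higher, the 7 just named, with adjusted p from 0.00599 for Ebp to 0.0411 for Dhcr7, and 0 lower, where 3.41% of genes were called higher and 2.74% lower. The fit then has 1 residual degree of freedom, and the arrays of a line differ in label and are not replicate cultures. Of 11 proliferation genes 10 were also above LLC on both MC38 arrays, and their part in the difference was not tested.

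AE17 levels depended on which of its arrays was taken. On the sh Ctrl arrays the median AE17 minus LLC difference of the sterol arm was 0.29, with 11 of 16 enzymes above 0, and on the sh Spp1 arrays 1.62, with 16 of 16. Both AE17 arrays lay above both LLC arrays for 13 members, against 26.2% of genes, and below for 0, against 15.4%. As deposited 3 members lay above and 4 below, where 2.35% and 47.6% of genes did, and when centred 10 and 0, where 21.2% and 9.74% did. MC38 lay above AE17 on the sh Ctrl arrays by a sterol median of 0.63 and below it on the sh Spp1 arrays by one of -0.72. Both arrays of MC38 lay above both of AE17 for 3 members and below for 4, against 16.5% and 26.9% of genes. As deposited 11 lay above and 1 below, where 55.2% and 3.86% of genes did, and when centred 1 and 3, where 13.9% and 20.9% did. In limma 0 members and 0% of genes passed in AE17 against LLC and in MC38 against AE17, with 6 and 2 members at an unadjusted p under 0.05, beside 12.8% and 13.2% of genes.

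Genes around these pathways had smaller median ratios than the sterol arm in AE17 by each scaling. Of 9 other measured genes of the sterol and SREBP pathway 1 was 2-fold higher and 0 lower in AE17, where 9.9% and 8.71% of all genes were. Their median was -0.07, or 0.52 with centred arrays, where all genes had 0.20. The 2-fold higher gene was Aacs, which feeds ketone bodies into lipid synthesis, with ratios of 1.35 in AE17, or 2.55-fold, 0.11 in LLC and 0.31 in MC38. Tmem97, a sterol-responsive membrane protein, had ratios of 0.65 in AE17, 1.03 in LLC and 0.21 in MC38. It was the 1 gene of this list at 2-fold in LLC after quantile normalisation, where 1.75% of all genes were higher and 1.81% lower. With centred arrays 4 of the 9 were 2-fold higher and 0 lower in LLC, where 15.9% and 0.918% of genes were. In AE17 2 were then higher and 0 lower, where 19% and 4.82% were. The lowest means belonged to Mbtps1, a protease that frees SREBP, with -0.40, -0.03 and -0.22, and Rdh11, with 0.03, -0.16 and -0.38.

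Cholesterol storage and efflux genes went both ways. Of 8 measured, 2 were 2-fold higher and 2 lower in AE17, where 9.9% and 8.71% of all genes were, with a median of 0.16. With centred arrays 3 were higher and 1 lower, where 19% and 4.82% were. Mylip, a ligase that degrades lipoprotein receptors, was at 6.13 and 9.57 in AE17, 10.8-fold apart, with ratios of 0.29 in LLC and -0.39 in MC38. Abca1, which exports cholesterol, was at 5.98 and 9.24 in AE17, 9.61-fold apart. Both are known targets of the LXR receptors. The LXR gene Nr1h3 was lower in AE17, from 6.16 to 5.11, and the LXR target Abcg1 from 7.74 to 5.73. The targets Mylip, Abca1 and Abcg1 thus differed in direction. The LXR gene Nr1h2 had no value here, and the part of LXR in these ratios was not tested. In LLC 1 gene of this list, Apoe, was 2-fold higher after quantile normalisation, at 5.92 and 7.07, where 1.75% of all genes were. In MC38 0 were, where 0.882% of genes were. As deposited 0 were 2-fold higher and 1 lower in LLC, where 0.714% and 17.1% of genes were. When centred 2 were higher and 0 lower in LLC, where 15.9% and 0.918% were, and 1 was higher in MC38, where 5.03% were.

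Of 19 further fatty acid genes 3 were 2-fold higher and 3 lower in AE17 after quantile normalisation, where 9.9% and 8.71% of all genes were, and the median was 0.23. As deposited 5 were higher and 3 lower, where 10.1% and 13.1% of genes were. With centred arrays 7 were higher and 1 lower, where 19% and 4.82% were. Fads2, a desaturase of polyunsaturated fatty acids, was at 9.42 and 11.87 in AE17, 5.47-fold apart, with -0.26 in LLC and 0.09 in MC38. Fads1 and Lpin1 were the others that were higher, at 1.14 and 1.28, and Me1, which supplies NADPH, was lower at -1.17. Acsl4, which activates polyunsaturated fatty acids, had -1.73 in AE17 and -0.72 in MC38, and Acss2, which activates acetate and is a known SREBP target, had -1.23. Fads3 had 0.33, 0.65 and 1.02 in LLC, AE17 and MC38. The 11 proliferation genes had a median ratio of -0.26 in AE17, -0.58 in LLC and 0.05 in MC38, and of 0.33, 0.42 and 0.55 in that order with centred arrays. Top2a and Bub1, with -1.61 and -1.34, were among the 3 of 11 that were 2-fold lower in AE17, where 8.71% of all genes were. With centred arrays 1 of the 11 was 2-fold lower and 3 higher, where 4.82% and 19% of genes were. Mcm2 and Plk1, with 0.49 and 0.65 in AE17, had the highest means.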

How the data were processed

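RNA was measured on 6 one-colour whole-transcript arrays. The deposited table holds linear intensity values for 41345 probe sets; RMA is named in the submitters' processing notes and GeneSpring GX 12.5 in the series' design text. The authors' values had not been brought to 1 distribution, so log2 intensities were quantile normalised with limma 3.58.1 in R 4.3.3. Genome build and annotation of that processing are not given in the sources used here.

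Probe sets were named from the platform annotation: 23521 had 1 symbol, 1814 several and 16010 none, and the brightest with 1 symbol stood for its gene. Genes whose mean reached the 30th percentile of all probe sets, 4.49, were tested with lmFit and eBayes over all 16797 genes, with cell line and label as terms and Benjamini-Hochberg adjustment at 0.05. Within a line, genes at the floor or above on either array were counted at 2-fold. The fit was also run on simulated data, with noise below the spread of the ratios here and each changed gene moved alike in every line. Ratios that differ between lines, like many of these, were not simulated.

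Members and lists were chosen with earlier results of these data known. Named with values on every array are members at 2-fold in a line or passing a line contrast; of the other lists, the 2 highest and 2 lowest means, plus genes singled out after their values were seen. Msln, Pdpn, Cdx2 and Epcam were likewise picked from longer marker lists. Promoters for Lss, Mvd and Sc5d were chosen after their ratios were seen. Replicates are lines, not repeat cultures. Alternatives covered scaling, brightness filter, probe set rule, variance prior, lines left out, model terms and fold. Counts over lines, between lines and for other lists under other scalings were added after the data were seen. Figures used matplotlib 3.10.9.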

Additional observations from a re-analysis of the deposited data

Results flagged for a closer look

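Flagged were members at 2-fold in opposite directions in different lines, and arms with a median at 2-fold higher in a line and below 0 in another. They are the sterol arm's median log2 ratio, 1.02 in AE17 against -0.23 in LLC and -0.34 in MC38, and Hmgcs1, 1.01 in AE17 against -1.02 in MC38. The MC38 ratio of Hmgcs1 was -0.61 as deposited and -0.44 when centred, short of 2-fold. Other members also differed in sign between lines without reaching 2-fold both ways. With centred arrays the sterol medians of LLC and MC38 were above 0, at 0.20 and 0.16. Each is 1 array against 1 array, so the difference between lines was not tested.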

How the results depend on the processing

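No member passed limma for the label effect, for AE17 against LLC or for MC38 against AE17 under any alternative run, the fit without the cell line block included, with 0 members. For MC38 against LLC 7 passed without AE17, the only exception, and 0 in the other settings. A contrast of a line that was left out has no value. No ratio at 2-fold turned its sign under another scaling. As deposited, 3 members were 2-fold lower in LLC, where 17.1% of genes were, and 2 were 2-fold higher in MC38, where 2.12% were, the sterol medians were -0.59 in LLC and -0.016 in MC38, and the fatty acid medians 0.94 in AE17 and 0.42 in MC38. Centred, 3 and 2 members were 2-fold higher in LLC and MC38, where 15.9% and 5.03% of genes were, the sterol medians were 1.66 for AE17, 0.20 for LLC and 0.16 for MC38, and the fatty acid medians 1.40, 0.89 and 0.60 in that order. At 1.5-fold, a log2 ratio of 0.58, 6 members passed in LLC, 0 higher and 6 lower, where 8.2% and 7.65% of genes did. In AE17 20 passed, 18 higher and 2 lower, where 18.9% and 19.7% did. In MC38 7 passed, 2 higher and 5 lower, where 6.09% and 5.38% did. The brightness filters and the mean of probe sets were run on the quantile-normalised values at 2-fold alone. They left the counts, the ratios at 2-fold and the arm medians as they were, but could change little. All 27 members lay above the floor of 4.49 on every array, and Scap, in neither arm, was the 1 member with 2 such probe sets. The number of arrays, 1 per label in a line, limits the precision.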
